A study of Mus musculus with 40 samples.

Results

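H3K9me2 in oocytes that lacked both G9a and Glp was compared with H3K9me2 in oocytes that lacked G9a alone. The genome was read in windows of 10 kb. The comparison covered 254443 of 272158 windows, those with a read in at least 1 of the 4 mutant libraries, and left out 17715 windows without one. Windows were also summed to bins of 100 kb, of which 25492 of 25844 were kept, and to bins of 1 Mb, of which 2560 of 2658 were kept, where at least 50% of the windows of a bin were in the comparison. These were 4 of the 6 H3K9me2 libraries and of the 40 samples of the series.

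All libraries came from mouse germinal-vesicle oocytes, fully grown oocytes still in meiotic arrest, collected by manual dissection from mice aged 22 to 25 days, with 100 to 200 oocytes pooled per sample. The single mutant, labelled G9a cKO, is a conditional knockout of G9a (libraries 1 and 3), and the double mutant, labelled G9a-Glp cDKO, a conditional knockout of G9a and Glp (libraries 5 and 7, called cDKO below). Controls (libraries 2 and 4) are set beside them as a reference. Labels of the RNA libraries carry the prefix GKAO for the single mutant and GKAQ for the double mutant, each with its own controls. The H3K9me2 labels carry no such prefix and do not assign the controls to either mutant. In the H3K9me2 comparison a difference that goes with the prefix therefore cannot be told apart from one of genotype. The Cre driver, the strain and the stage of oocyte growth at which the genes were deleted are not given in the sources used here. Chromatin was immunoprecipitated natively with 250 ng of antibody to H3K9me2 by a method for very few cells. The labels do not say that the pools came from separate animals, so p-values measure the spread between these samples, which may be technical.

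G9A, the product of Ehmt2, and GLP, the product of Ehmt1, are related enzymes that bind each other and place H3K9me2, a mark of transcriptionally quiet chromatin. The mark lies in broad domains that cover gene-poor DNA and clusters of tissue-restricted genes more than active genes. Other methyltransferases act on the same lysine, so loss of one enzyme need not remove all of the mark. Values here are shares of each library's reads, so a change in the total amount of H3K9me2 cannot be seen, and "higher" or "lower" means a larger or smaller share. Input chromatin was not analysed here.

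In the RNA libraries of the same genotypes, Ehmt1 stood at 69.3, 75.9 and 66.9 reads scaled to a library of 1000000 (RPM) in G9a cKO and at 17.7 and 21.3 RPM in cDKO. Ehmt2 had few reads, with 2.09, 6.01 and 0.942 RPM in G9a cKO, 2.85 and 2.96 RPM in cDKO and 5.03 to 12.5 RPM in controls, and the deleted exons are not given. All 10 oocyte marker genes were detected at a mean of 1 RPM or more, with a summed level of 13830 to 17030 RPM over the 11 RNA libraries. Granulosa cell markers reached 8 to 9 of 10 genes and 123 to 199 RPM in sum (123 to 148 RPM in cDKO and 140 to 165 RPM in G9a cKO), and of 4 blood markers the 2 found in the table had no read. The mutant H3K9me2 libraries held 1857144 and 1109191 reads in G9a cKO and 1723142 and 1881848 in cDKO, against 7048784 and 19128881 in controls. A 10 kb window held a median of 6 and 4 reads in G9a cKO and 6 and 7 in cDKO, and a 100 kb bin 70 and 42, and 67 and 74.

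Promoters of genes named below are shown first, as examples chosen after the values were seen, to let the sequences of lower and higher regions be read beside the values. They run from 250 bases before to 50 bases after the annotated start, 5′ to 3′ on the gene's strand, from RefSeq on GRCm38.p6, with every CG in capitals. CG is the site of vertebrate DNA methylation and reads the same on both strands. Zfp970 (chr2:177464492-177464791, plus strand) and Zfp972 (chr2:177925601-177925900, minus strand) encode zinc finger proteins and lie in the 1 Mb bin with the third largest decrease. Vmn2r42 (chr7:8200271-8200570, minus strand) and Vmn2r43 (chr7:8260550-8260849, minus strand) encode vomeronasal pheromone receptors and lie in the 1 Mb bin with the largest decrease. Robo2 (chr16:74411776-74412075, minus strand), an axon guidance receptor, has 3 annotated promoters. The one shown lies in a 1 Mb bin with both cDKO libraries higher, outside the 100 kb bin of Robo2 called below. Tm9sf3 (chr19:41263955-41264254, minus strand), a membrane protein of the secretory pathway, has its promoter in a 100 kb bin called higher in cDKO.
Zfp970: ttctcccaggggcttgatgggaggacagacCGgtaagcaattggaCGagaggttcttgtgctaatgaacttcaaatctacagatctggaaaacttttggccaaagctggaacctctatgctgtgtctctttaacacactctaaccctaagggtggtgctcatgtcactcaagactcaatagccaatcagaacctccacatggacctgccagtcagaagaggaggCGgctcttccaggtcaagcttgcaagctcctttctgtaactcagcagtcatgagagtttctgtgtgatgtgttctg
Zfp972: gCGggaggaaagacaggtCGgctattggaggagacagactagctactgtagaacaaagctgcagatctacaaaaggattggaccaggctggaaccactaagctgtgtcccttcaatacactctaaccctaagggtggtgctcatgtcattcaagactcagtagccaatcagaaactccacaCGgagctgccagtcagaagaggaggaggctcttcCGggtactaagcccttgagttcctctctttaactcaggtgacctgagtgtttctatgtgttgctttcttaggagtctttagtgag
Vmn2r42: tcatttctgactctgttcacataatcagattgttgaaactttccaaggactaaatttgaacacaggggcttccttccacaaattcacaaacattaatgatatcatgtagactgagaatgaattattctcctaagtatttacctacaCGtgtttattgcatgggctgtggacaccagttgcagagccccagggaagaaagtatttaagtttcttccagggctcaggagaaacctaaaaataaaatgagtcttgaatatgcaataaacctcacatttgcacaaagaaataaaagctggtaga
Vmn2r43: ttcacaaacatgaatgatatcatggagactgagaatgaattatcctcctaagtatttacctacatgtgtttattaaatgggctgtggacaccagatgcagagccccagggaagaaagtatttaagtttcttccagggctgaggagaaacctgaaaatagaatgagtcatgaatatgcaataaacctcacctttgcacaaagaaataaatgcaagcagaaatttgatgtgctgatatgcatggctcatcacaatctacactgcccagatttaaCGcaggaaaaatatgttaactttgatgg
Robo2: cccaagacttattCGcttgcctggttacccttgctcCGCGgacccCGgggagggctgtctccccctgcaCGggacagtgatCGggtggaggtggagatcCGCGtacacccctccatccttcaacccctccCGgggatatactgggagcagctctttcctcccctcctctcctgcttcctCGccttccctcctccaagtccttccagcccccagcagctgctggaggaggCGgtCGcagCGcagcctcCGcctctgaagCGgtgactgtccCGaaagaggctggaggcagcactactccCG
Tm9sf3: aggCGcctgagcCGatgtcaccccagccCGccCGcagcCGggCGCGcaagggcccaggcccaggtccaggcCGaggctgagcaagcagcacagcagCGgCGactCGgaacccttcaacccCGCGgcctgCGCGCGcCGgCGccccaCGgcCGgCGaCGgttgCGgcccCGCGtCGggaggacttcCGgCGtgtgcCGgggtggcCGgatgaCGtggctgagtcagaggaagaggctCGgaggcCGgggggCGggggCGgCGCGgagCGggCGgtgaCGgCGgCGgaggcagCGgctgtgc

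These hold 3, 4, 1, 1, 17 and 43 CG, in the order shown. Of 32851 RefSeq promoters of this length, 31.4% hold 3 or fewer, 38.0% hold 4 or fewer, 14.1% hold 1 or fewer, 70.3% hold 17 or fewer and 97.8% hold 43 or fewer. The last pair is not typical of the bins called higher, whose 9 promoters had a median of 3 CG. The promoters within a family resembled each other, with 184 of 282 aligned bases (65.3%) identical between Zfp970 and Zfp972 at a shift of 18 bases, and 202 of 218 (92.7%) between Vmn2r42 and Vmn2r43 at a shift of 82. How reads that match several copies were placed is not given in the sources used here, so values of single genes in such clusters are uncertain.

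Clusters of gene families carried a smaller share of H3K9me2 in cDKO than in G9a cKO. A cluster is a run of at least 5 genes with the same name stem and gaps of at most 200 kb, and its level is the log2 of its read density over that of all windows compared. Zinc finger (Zfp) clusters, which encode mostly DNA-binding repressors, were the most enriched of the families listed in the mutants, though not in controls. Their density was 0.65 and 0.61 in G9a cKO versus 0.45 and 0.29 in cDKO, against -0.11 and -0.13 in controls. The 687 windows of 16 Zfp clusters thus differed by -0.26 on the log2 scale (0.63 ± 0.03 in G9a cKO and 0.37 ± 0.11 in cDKO, SD, n = 2 each), and the groups did not overlap. With 2 libraries against 2, the exact two-sided permutation p cannot fall under 0.333, which is also the p of each class below whose groups did not overlap.

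Vomeronasal receptor clusters (Vmn1r and Vmn2r) showed the widest gap of the families listed. Density in their 1443 windows was 0.14 and -0.01 in the single mutant, -0.17 and -0.29 in the double mutant and -0.45 in both controls, a difference of -0.30. Olfactory receptor (Olfr) clusters, whose genes serve the nose, had 0.17 and 0.12 in G9a cKO, -0.02 and -0.06 in cDKO and -0.09 and -0.07 in controls, a difference of -0.19 over 2734 windows. In all 3 families both cDKO libraries lay between the G9a cKO libraries and the controls. Over the 4626 windows of 119 clusters of other gene families, a class added after these values were seen, density was 0.18 and 0.11 in G9a cKO versus 0.01 and -0.11 in cDKO, a difference of -0.20. Beta-defensin (Defb) clusters, which encode antimicrobial peptides, also had both cDKO libraries lower (-0.21 over 97 windows). Their density was 0.29 and 0.10 in G9a cKO, 0.03 and -0.07 in cDKO and 0.15 and 0.22 in controls, above cDKO. Keratin-associated protein (Krtap) clusters overlapped between groups.

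**Figure D1:**
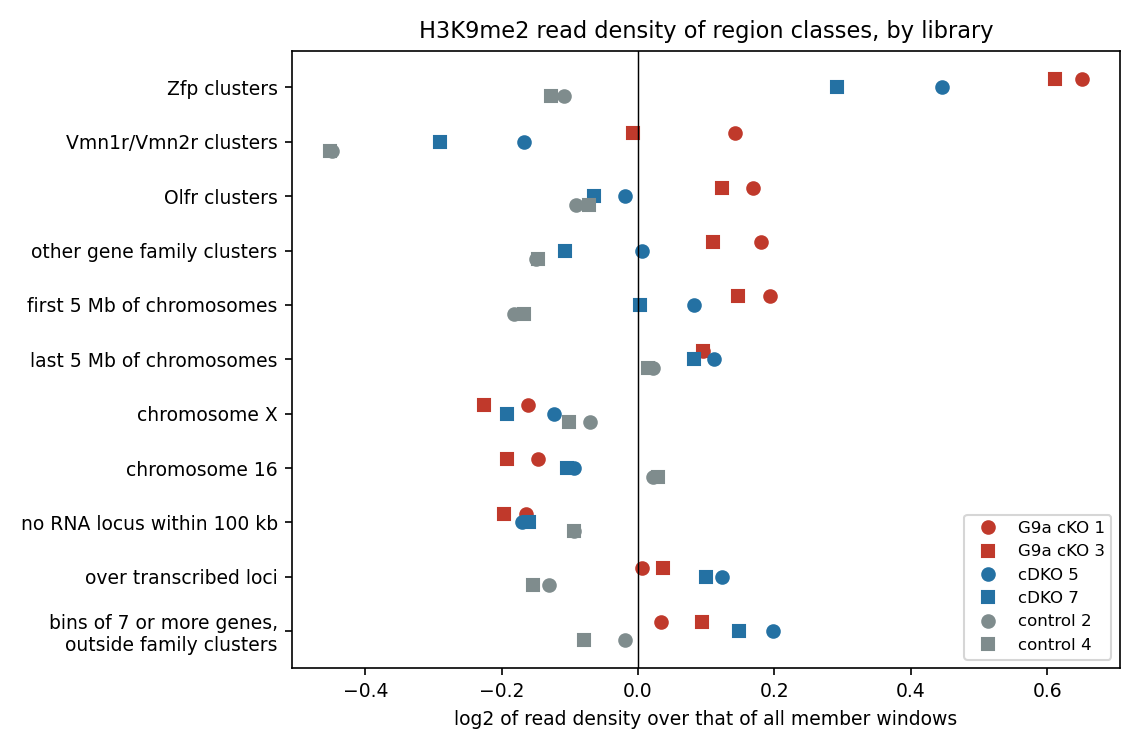
H3K9me2 read density of region classes, as log2 of the density over that of all windows compared (horizontal axis), for each of the 6 libraries (red, G9a cKO; blue, cDKO; grey, controls). In the 4 gene family classes at the top both cDKO points lie left of both G9a cKO points, while over transcribed loci and in gene-dense bins they lie right of them.

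Counted over 100 kb bins, both cDKO libraries lay below both G9a cKO libraries in 5332 of 25492 bins (20.9%) and above both in 6456 (25.3%). Against this background, both lay below in 42 of 73 bins of Zfp clusters (57.5%) and above in 0. In Vmn clusters 84 of 150 bins (56.0%) were lower and 5 (3.33%) higher, in Olfr clusters 117 of 277 (42.2%) and 25 (9.03%), and in other families 205 of 481 (42.6%) and 62 (12.9%). The test across all bins was limma with Benjamini-Hochberg adjustment and a threshold of 0.05 on adjusted p, which called 51 of 25492 bins lower (0.2%) and 5 higher (0.0196%). It called 0 of 73 bins of Zfp clusters (18 lower and 0 higher at an unadjusted p under 0.05). It called 3 of 150 lower in Vmn clusters, 1 of 277 in Olfr clusters and 1 of 481 in other families, and 0 higher in these.

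Single clusters differed in how far they followed their family. Clusters vary in length, and the share over other regions of the same length was not measured. Over all features, both cDKO libraries were lower in 17.8% of 10 kb windows, 20.9% of 100 kb bins and 23.6% of 1 Mb bins. Both were higher in 20.1%, 25.3% and 28.7%. Of the 16 Zfp clusters, 11 were lower in both cDKO libraries, 5 overlapped and 0 were higher, with a median difference of -0.26 (range -0.40 to 0.08). The Zfp677 cluster (18 genes, chr17:21383707-22456689) had densities of 0.64 and 0.56 in G9a cKO, 0.32 and 0.07 in cDKO and -0.14 and -0.27 in controls. It was the Zfp cluster with the largest decrease, -0.40. The Zfp560 cluster (5 genes, chr9:20345136-20605404) carried the mark most densely of all Zfp clusters in G9a cKO 3, at 1.19, and stood at 1.13 in G9a cKO 1, 0.92 and 0.62 in cDKO and 0.17 in both controls. By contrast, the Zfp653 cluster on chromosome 9 stood at 0.89 and 0.71 in G9a cKO versus 0.74 and 0.86 in cDKO, so that the groups overlapped. The Zfp786 cluster on chromosome 6 overlapped too, at 0.22 and 0.48 in G9a cKO versus 0.44 and 0.43 in cDKO.

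Among 21 Vmn clusters, 16 were lower and 5 overlapped, with a median of -0.30 (range -0.74 to -0.07), and the mean of cDKO was below that of G9a cKO in all 21. The lowest was the Vmn2r41 cluster (5 genes, chr7:8137905-8488959), with -0.55 and -0.93 in G9a cKO, -1.52 and -1.44 in cDKO and -2.48 and -2.38 in controls. Its density was below the genome's in every library, and 438 reads over the 4 mutant libraries support it. The Vmn1r55 cluster (12 genes, chr7:5146490-6011010) had 2795 reads and stood at 0.57 and 0.52 in G9a cKO, 0.11 and -0.10 in cDKO and -0.15 in both controls, a difference of -0.54.

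Olfactory receptor clusters were less uniform, with 23 lower, 3 higher and 8 overlapping of 34 and a median of -0.17 (range -0.46 to 0.22). In the Olfr338 cluster (28 genes, chr2:36376778-37332732) the densities were 0.97 and 0.88 in G9a cKO, 0.61 and 0.47 in cDKO and -0.17 and -0.25 in controls. The Olfr987 cluster, the longest of the family with 222 genes on chr2:85330967-90401674, differed little, with -0.12 and -0.11 in G9a cKO versus -0.18 and -0.22 in cDKO. The Olfr310 cluster (15 genes, chr7:86268730-86695384) had the opposite order, with -0.51 and -0.63 in G9a cKO, -0.36 and -0.34 in cDKO and -0.36 and -0.37 in controls. In these 3 clusters the level in G9a cKO differed as well, from far above the genome's density to far below it.

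**Figure D2:**
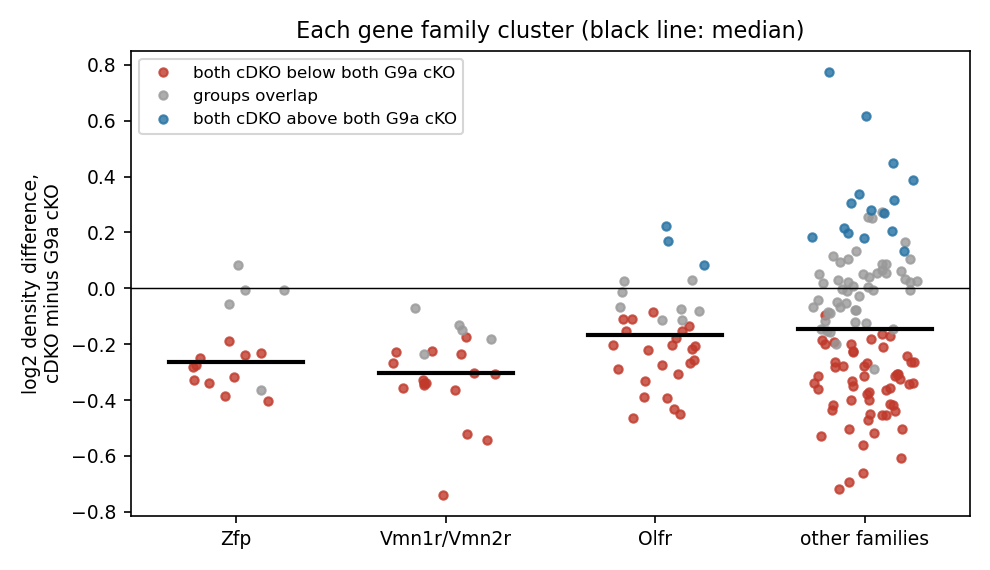
Difference in H3K9me2 density between cDKO and G9a cKO for each gene family cluster (points; log2, vertical axis) by family, with the median as a black line. Red points, with both cDKO libraries below both G9a cKO libraries, number 11 of 16 (Zfp), 16 of 21 (Vmn1r and Vmn2r), 23 of 34 (Olfr) and 55 of 119 (other families), and blue points, with both above, 0, 0, 3 and 15. Over all bins, both were below in 20.9% (100 kb) and 23.6% (1 Mb), and above in 25.3% and 28.7%.

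The 119 clusters of other families split into 55 lower, 15 higher and 49 overlapping, with a median of -0.14 (range -0.72 to 0.77). Of the 5 with the most windows, 4 were lower. The Skint cluster on chromosome 4, whose genes encode proteins of skin and thymus epithelium, had 0.30 and 0.03 in G9a cKO versus 0.00 and -0.20 in cDKO. A cytochrome P450 (Cyp) cluster of 14 genes on chr19:39006940-40187286 had 0.49 and 0.36 against 0.07 and -0.13, a difference of -0.45. The Serpinb cluster of protease inhibitors on chromosome 13 differed by -0.36, and a solute carrier (Slc) cluster on chromosome 19 by -0.32. The prolactin (Prl) cluster on chromosome 13, the remaining one, overlapped, with 0.14 and -0.15 in G9a cKO versus -0.17 and -0.14 in cDKO.

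Hox clusters, named here after their values were seen, included ones of the opposite order. Hox genes encode transcription factors that pattern the body axis, and their clusters are short and rich in CG. Hoxc (chr15:102921131-103036856) had -0.78 and -0.48 in G9a cKO, 0.14 and -0.16 in cDKO and -0.20 and -0.30 in controls. Hoxd (chr2:74668225-74765142) had -0.77 and -1.14 in G9a cKO, -0.54 and 0.18 in cDKO and -0.19 and -0.12 in controls. In Hoxc and Hoxd both cDKO libraries were above both G9a cKO libraries. Hoxb on chromosome 11 overlapped, at -0.78 and -0.18 in G9a cKO versus -0.30 and -0.10 in cDKO. Each cluster rests on 215 to 373 reads over the 4 libraries.

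Windows over transcribed loci held a larger share of H3K9me2 in cDKO. Loci with a mean of at least 10 RPM in oocyte RNA cover 60031 windows (23.6%), which held 23.7% and 24.2% of the reads in G9a cKO and 25.7% and 25.3% in cDKO. As log2 density this was 0.01 and 0.04 in G9a cKO, 0.12 and 0.10 in cDKO and -0.13 and -0.15 in controls, a difference of 0.09. Both cDKO libraries were higher in 2094 of 6291 of their 100 kb bins (33.3%) and lower in 833 (13.2%). Bins over silent annotated loci alone had similar shares, 65 of 193 higher (33.7%) and 28 lower (14.5%), though their density overlapped between groups (-0.10 and -0.07 in G9a cKO versus -0.08 and -0.02 in cDKO). Over transcribed loci the cDKO libraries were farther from the controls than the G9a cKO libraries were, unlike in Zfp, Vmn and Olfr clusters.

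Gene density, a division added after the values were seen, gave the same order. Outside family clusters, bins with 7 or more RefSeq genes had densities of 0.03 and 0.09 in G9a cKO versus 0.20 and 0.15 in cDKO, a difference of 0.11, and 58 of 164 were higher (35.4%) against 14 lower (8.54%). Bins without a gene differed by -0.02, with 3285 of 14206 higher (23.1%) and 3193 lower (22.5%). Windows more than 100 kb from any RNA locus overlapped between groups, with -0.16 and -0.20 in G9a cKO versus -0.17 and -0.16 in cDKO.

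The difference also varied with position on the chromosome. In the first 5 Mb, the end that holds the centromere in mouse chromosomes, density was 0.19 and 0.15 in G9a cKO, 0.08 and 0.00 in cDKO and -0.18 and -0.17 in controls. Of the 985 bins there, 362 were lower (36.8%) and 159 higher (16.1%). The last 5 Mb and chromosome X overlapped between groups. Chromosome 16 had -0.15 and -0.19 in G9a cKO, -0.09 and -0.10 in cDKO and 0.02 and 0.03 in controls. Of its bins, 356 of 950 were higher (37.5%) and 135 lower (14.2%). Its difference of 0.07 was the largest among the autosomes and X. The groups also did not overlap on chromosomes 4, 14 and 19, which were higher in cDKO, and 1, 7 and 17, which were lower. On the other autosomes and X they overlapped.

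At single bins of 100 kb, limma called 51 lower in cDKO (0.2% of 25492) and 5 higher (0.0196%). The 51 bins that fell lie on 16 chromosomes, and their median difference was -0.90 (range -1.45 to -0.79). Their median levels, with 0.5 read added as in every bin value, were 70.8 and 68.1 RPM in G9a cKO and 38.6 and 35.9 RPM in cDKO, against 39.5 and 39.0 RPM in controls. A protein-coding gene overlapped 22 of them (43.1%, against 64.5% of all bins), an RNA locus 50 (98.0%, against 75.1%), and a gene family cluster 6 (11.8%, against 4.52%). The mean of the controls was above that of cDKO in 32 of the 51 and below it in the other 19, against 13667 and 11825 of all 25492 bins. Since the 51 bins were called on high values in G9a cKO, their place relative to controls is a description only.

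Among the named autosomal bins, the smallest adjusted p belonged to chr14:43600001-43700000, which holds the predicted genes Gm21154, Gm10375 and Gm8165. It had 48.2 and 50.9 RPM in G9a cKO (89 and 56 reads) and 17.7 and 19.4 RPM in cDKO (30 and 36 reads), with 23.8 and 22.4 RPM in controls. The difference was -1.42 (SE 0.23, limma adjusted p = 0.0024). A bin without a protein-coding gene, chrX:17400001-17500000, had 70.8 and 82.5 RPM in G9a cKO, 32.8 and 34.3 RPM in cDKO and 42.1 and 41.8 RPM in controls (-1.19, SE 0.19, limma adjusted p = 0.0024). In both bins every cDKO library was below every control, and every G9a cKO library above.

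Aoah, which encodes an enzyme that inactivates bacterial lipopolysaccharide, overlaps chr13:20800001-20900000, with 48.2 and 60.0 RPM in G9a cKO and 23.5 and 23.1 RPM in cDKO (-1.21, limma adjusted p = 0.00402). Kcnv1, which encodes a modulatory potassium channel subunit, overlaps chr15:45000001-45100000, with 76.2 and 60.9 against 34.5 and 27.4 RPM (-1.15, limma adjusted p = 0.00327). Sytl5, which encodes a protein of vesicle traffic, overlaps chrX:9900001-10000000, with 84.3 and 63.6 against 34.5 and 32.7 RPM (-1.12, limma adjusted p = 0.00327). In the controls Aoah's bin stood at 33.3 and 34.6 RPM and Kcnv1's at 43.2 and 42.2, above cDKO, while Sytl5's stood at 34.5 and 27.0, at the level of cDKO. The largest decrease by size, chr5:94800001-94900000 with Gm3183, rests on few reads, 42 and 28 in G9a cKO versus 20 and 12 in cDKO (-1.45, SE 0.34, limma adjusted p = 0.048). The other 4 named by size, which hold Gm904 and Gm8765, Gm5622, a gene with only a LOC identifier and no gene, fell by 1.14 to 1.39 on the log2 scale.

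The 5 bins that rose were 1.05 to 1.27 higher on the log2 scale, at median levels of 20.2 and 16.7 RPM in G9a cKO, 36.9 and 40.7 RPM in cDKO and 36.5 and 35.0 RPM in controls. Robo2 overlaps chr16:74500001-74600000, with 28 and 12 reads (15.3 and 11.3 RPM) in G9a cKO and 54 and 59 reads (31.6 RPM in both) in cDKO (1.27, SE 0.29, limma adjusted p = 0.0438). Arhgap15, which encodes a regulator of a small GTPase, overlaps chr2:43700001-43800000, with 20.2 and 13.97 against 43.8 and 34.8 RPM (1.22, limma adjusted p = 0.0246). Gbe1, the glycogen branching enzyme, overlaps chr16:70400001-70500000, with 17.0 and 16.7 against 36.9 and 40.7 RPM (1.2, limma adjusted p = 0.0226). Tm9sf3, whose promoter is shown above, lies with Tll2 and Pik3ap1 on chr19:41200001-41300000, at 22.3 and 16.7 against 36.9 and 49.2 RPM (1.14, limma adjusted p = 0.0246). The last, chr1:41800001-41900000, holds no gene and had 21.8 and 21.2 against 48.5 and 40.7 RPM (1.05, limma adjusted p = 0.0279). In all 5, both controls were above both G9a cKO libraries. The same held in 9935 of all 25492 bins and in 4574 of the 6456 with both cDKO libraries higher. Since the 5 bins were called on low values in G9a cKO, their place relative to controls is a description only.

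**Figure D3:**
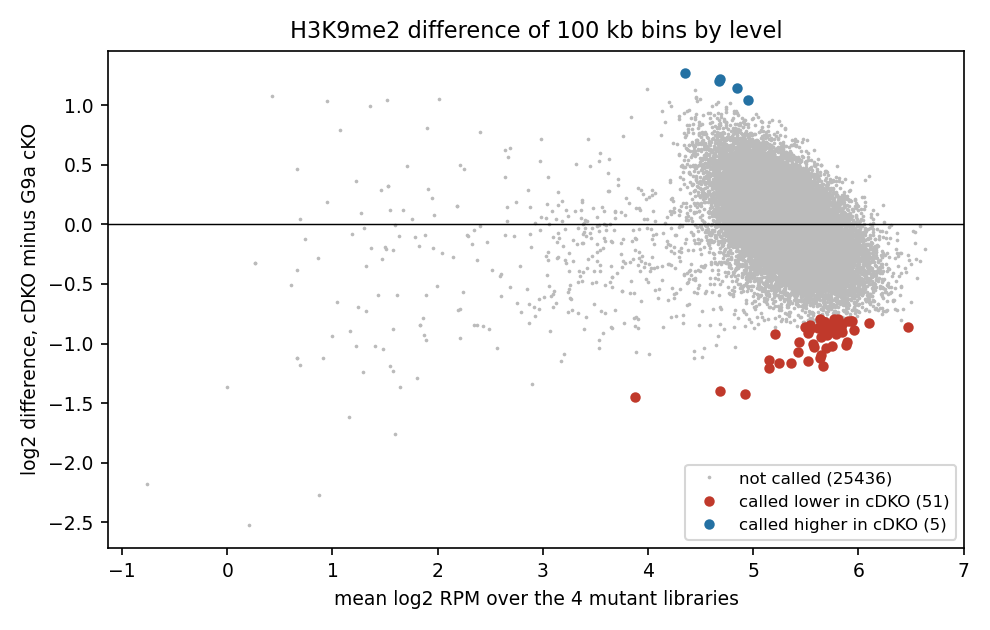
Difference of each 100 kb bin between cDKO and G9a cKO (log2, vertical axis) against its mean level over the 4 mutant libraries (log2 RPM, horizontal axis), with the 51 bins called lower in red and the 5 called higher in blue. The cloud tilts downward, with bins of low level mostly above the line and bins of high level mostly below it.

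The calls depend on single libraries. Without G9a cKO 1 the test called 450 bins (283 higher and 167 lower), without G9a cKO 3 it called 404 (198 and 206), without cDKO 5 170 and without cDKO 7 8, and these include 48, 52, 42 and 7 of the 56. Of the bins named above, those on chromosome 14 (from 43600001), of Aoah, on chromosome X (from 17400001) and of Sytl5 passed under every alternative run, and the 5 that rose in 9 or 10 of 13.

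At the level of 10 kb windows, both cDKO libraries were higher in 51140 of 254443 (20.1%) and lower in 45336 (17.8%). Limma called 163 windows lower (0.0641%) and 0 higher (0%), with 11036 and 9374 at an unadjusted p under 0.05 and a lowest adjusted p of 0.0863 among the higher. The 163 windows had medians of 12.9 and 13.5 RPM in G9a cKO, 2.90 and 3.19 RPM in cDKO and 4.26 and 4.13 RPM in controls. Since they were called on high values in G9a cKO, their place relative to controls is a description only. A protein-coding gene overlapped 33 (20.2%, against 45.9% of all windows), an RNA locus 110 (67.5%, against 46.9%) and a family cluster 7 (4.29%, against 3.83%). The largest, chr13:87430001-87440000, had 19 and 17 reads in G9a cKO and 3 and 1 in cDKO (-3.70, limma adjusted p = 0.00068). The window chrX:17440001-17450000, inside the bin named above, had 28 and 22 reads against 5 and 2 (-3.30, limma adjusted p = 2.14e-06). No window was called with all libraries thinned to 1109191 reads, with controls in the fit, or with no trend or robust moderation. Without G9a cKO 1, 12 of the 163 were called, and without G9a cKO 3, 1. Most calls were then higher, with 106 higher and 14 lower without the first and 16 and 1 without the second.

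Bins of 1 Mb were higher in both cDKO libraries in 735 of 2560 (28.7%) and lower in 603 (23.6%). Limma called 0 in either direction (0%), with 274 higher and 256 lower at an unadjusted p under 0.05 and a lowest adjusted p of 0.0517. The lowest p belonged to chr2:177000001-178000000, the zinc finger gene cluster with Zfp970, Zfp972, Gm14322, Gm14325 and Gm14326. It had 705 and 414 reads in G9a cKO (380 and 374 RPM), 451 and 404 in cDKO (262 and 215 RPM), and 146 and 136 RPM in controls, a difference of -0.67 (SE 0.10). It passed in 11 of 13 alternatives. The promoters of Zfp970 and Zfp972 in this bin are the CG-poor pair shown above.

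Of the other 4 largest decreases, chr7:8000001-9000000 holds Vmn2r40 to Vmn2r45, with 132 and 103 RPM in G9a cKO, 71.7 and 73.1 RPM in cDKO and 37.5 and 37.7 RPM in controls (-0.69). The adjacent bins chr14:42000001-43000000 and chr14:43000001-44000000 hold predicted genes and, in the second, the ribonuclease genes Ear1, Ear10 and Ang5, and differed by -0.67 and -0.55. The second of them had 319 and 327 RPM in G9a cKO, 221 in both cDKO libraries and 277 and 262 in controls. A bin on chr13:66000001-67000000 with Zfp640 differed by -0.59. The largest increases were at Pcdh9 (chr14:93000001-94000000, 0.56), which encodes a neuronal cell adhesion protein, a bin with the transcription factor genes Zic2 and Zic5 (chr14:122000001-123000000, 0.47), Robo2 (chr16:74000001-75000000, 0.41), the synaptic scaffold gene Dlg2 (chr7:91000001-92000000, 0.40) and a bin with Prdm8, Fgf5 and Bmp3 (chr5:98000001-99000000, 0.40). The Zic2 bin had 273 and 244 RPM in G9a cKO and 365 and 352 RPM in cDKO, with 372 and 337 RPM in controls (limma adjusted p = 0.0564). None of these bins reversed direction under any alternative run. They were picked as bins whose groups did not overlap, so leaving out 1 library could not have reversed them.

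**Figure D4:**
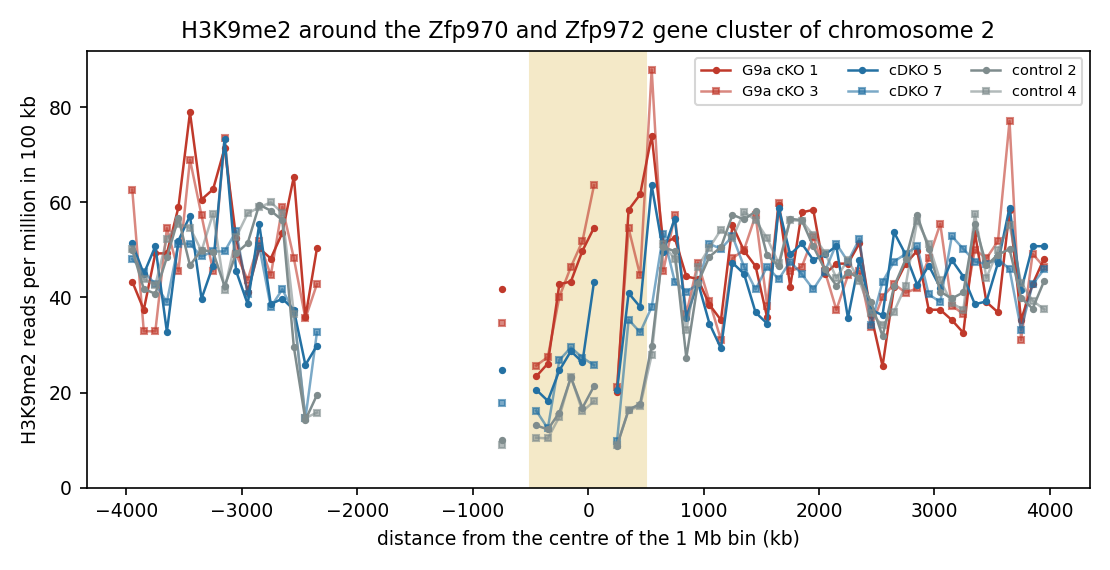
H3K9me2 in RPM per 100 kb bin (vertical axis) by distance from the centre of the chromosome 2 bin with Zfp970 and Zfp972 (kb, horizontal axis; shaded, the 1 Mb bin), with 1 line per library and gaps where bins were not kept. Inside the shading G9a cKO spans 20.2 to 63.6, cDKO 9.83 to 43.2 and controls 8.87 to 23.3. Bin by bin, G9a cKO lies above cDKO and cDKO above controls, except at 250 kb. There cDKO 5 (20.6) lies above G9a cKO 1 (20.2). The same order holds in the next bin to the right (74.0 and 87.9, 63.5 and 38.0, and 29.9 and 27.9) and in some bins to the left. From 650 kb to the right the lines mix.

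H3K9me2 was spread more evenly along the genome in cDKO. Unevenness was taken as the coefficient of variation (CV) of reads over windows after subtracting the counting variance. Over 10 kb windows it was 53.7% and 49.3% in G9a cKO, 34.7% and 26.9% in cDKO and 24.8% and 26.3% in controls. Over 100 kb it was 32.2% and 30.7%, 22.8% and 19.7%, and 18.8% and 19.9%, and over 1 Mb 20.3% and 21.7%, 17.1% and 16.6%, and 14.7% and 15.4%. At each scale both cDKO libraries were below both G9a cKO libraries, by 20.7, 10.2 and 4.10 percentage points on average, given as a description without a test. With every library thinned to the depth of the shallowest the gaps were 20.7, 10.2 and 4.13 points.

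**Figure D5:**
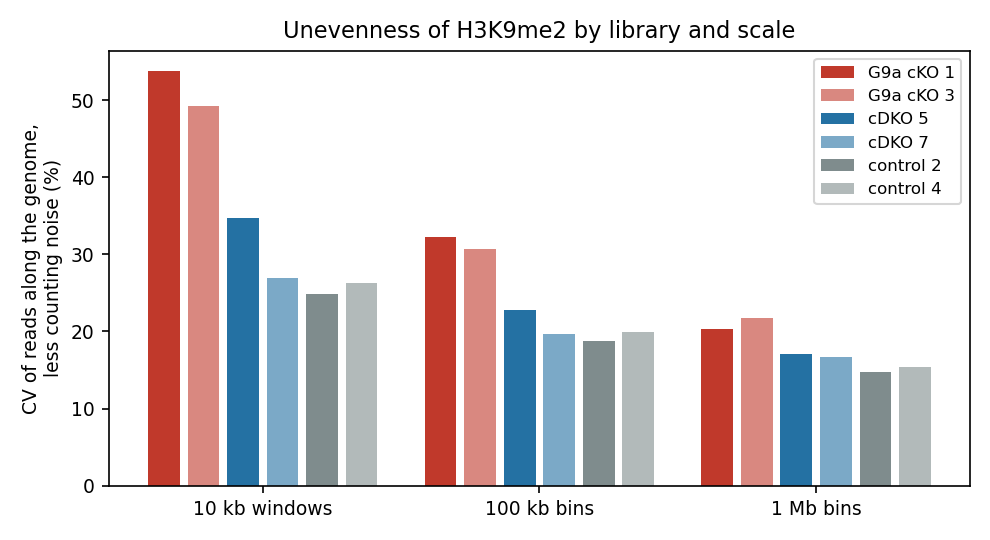
Coefficient of variation of H3K9me2 reads along the genome after subtracting counting variance (percent, vertical axis), for 10 kb windows, 100 kb bins and 1 Mb bins, with 1 bar per library. Both cDKO bars are shorter than both G9a cKO bars at each scale, and at 10 kb cDKO 7 (26.9%) reaches the controls (24.8% and 26.3%).

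Windows that stood far above the mean were fewer in cDKO. At equal depth a window held 4.42 reads on average, and 12 or more reads were found in 9380 and 7586 windows of G9a cKO (3.69% and 2.98%), 3593 and 1827 of cDKO (1.41% and 0.718%) and 1375 and 1524 of controls (0.540% and 0.599%). The G9a cKO libraries shared 2930 of them (31.2% and 38.6% of each), and the cDKO libraries 226 (6.29% and 12.4%). Among the longer lists of G9a cKO, cDKO 5 shared 1201 with G9a cKO 1 (33.4% of its own) and 1010 with G9a cKO 3 (28.1%), and cDKO 7 shared 470 (25.7%) and 430 (23.5%). The controls shared 30.

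Over 1 Mb bins, log2 levels correlated across bins at 0.915 between the G9a cKO libraries, 0.945 between the cDKO libraries and 0.812 to 0.908 between the genotypes. With controls, cDKO reached 0.728 to 0.80 and G9a cKO 0.600 to 0.627. These are correlations across bins, which are not independent, and the deeper control libraries enter with less counting noise. The difference between genotypes, taken in separate pairs of libraries, correlated at 0.568 or 0.352 over 1 Mb, at 0.345 or 0.261 over 100 kb and at 0.106 or 0.0897 over 10 kb, depending on the pairing. Differences within genotypes, paired the same way, correlated at 0.294, 0.0930 and 0.0168. Neighbouring 100 kb bins had differences that correlated at 0.248, and bins 1 Mb apart at 0.0811.

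Promoters in bins with both cDKO libraries lower held fewer CG than those in bins with both higher, but the called bins did not divide this way. In bins with both cDKO libraries lower, 5961 promoters had a median of 5 CG in 300 bases, 20.2% had 20 or more and 41.8% had 3 or fewer. In bins with both higher, 8969 promoters had a median of 10, with 32.04% and 23.8%, and in bins where the groups overlapped the median was 7. Outside gene family clusters the medians were 6 and 11. The 51 bins that fell held 30 promoters, with a median of 2 CG, and 0 of them had 20 or more. The 5 bins that rose held 9, with a median of 3, of which 5 had 3 or fewer and 2 had 20 or more. Both sets had medians below the 7 of all promoters. Base composition of the windows themselves was not measured, and its part in the differences was not tested.

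Genes chosen for their part in the study were looked up by the 100 kb bin that holds them. Of 44 such 100 kb bins, 16 were higher in both cDKO libraries, 5 lower and 23 overlapped, against 25.3% higher and 20.9% lower over all bins, and 0 were called (10 at an unadjusted p under 0.05, limma), and the median difference was 0.13, against 0.03 over all bins. Both deleted genes lie in bins with both cDKO libraries higher, Ehmt2 with 5.03 and 4.83 log2 RPM in G9a cKO against 5.51 and 5.35 (0.50), and Ehmt1 by 0.22.

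Among 10 bins of genes listed as higher in the mutants' RNA, 5 were higher, 2 lower and 3 overlapped, against the same shares of 25.3% and 20.9%. Not every gene of that list could be read in the RNA used here, as Mt2 had a mean of 0 RPM and Zfp352 no value. Zscan4d, a gene of the earliest embryo, had the largest decrease of all 44, with 5.49 and 5.67 log2 RPM in G9a cKO, 4.98 and 4.96 in cDKO and 5.09 and 5.16 in controls (-0.61, limma adjusted p = 0.142). Zfp352, another gene of the early embryo, differed by -0.41. The RNA effect of cDKO was larger than that of G9a cKO for Rgs7, a regulator of G protein signalling (4.73 on the log2 scale, limma adjusted p = 7.88e-05), and for Kmt2a, a histone methyltransferase labelled Mll1 in the list (5.39, limma adjusted p = 0.000318), at a mean of 6.93 and 3.57 RPM. Their H3K9me2 bins differed by 0.29 and -0.01. Usp17l5, of the same list, had an RNA contrast of 4.44 (limma adjusted p = 0.00846) at a mean of 4.19 RPM. Its H3K9me2 bin overlapped between groups (0.10). For Zscan4d the RNA contrast was 2.05 (limma adjusted p = 0.0553) at a mean of 19.8 RPM.

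Imprinted genes, expressed from 1 parental copy, gave 4 higher, 1 lower and 12 overlapping of 17 bins, and the count of higher bins is near the 25.3% of all bins (20.9% were lower). The one that was lower holds Peg3, with 6.22 and 6.18 log2 RPM in G9a cKO and 5.56 and 5.90 in cDKO (-0.47). Jade1 had the largest increase of all 44, from 4.13 and 4.92 to 5.43 and 5.29 log2 RPM, with 5.57 and 5.66 in controls (0.84, limma adjusted p = 0.103). Oocyte genes gave 2 higher, 2 lower and 4 overlapping of 8, also near those shares, the higher being Bmp15, an oocyte growth factor (4.58 in both G9a cKO libraries, 5.27 and 5.25 in cDKO, 0.68), and Zp3, of the egg coat (0.27). Cell fate genes gave 3 higher and 4 overlapping of 7, with Hoxd13 (0.60) and Pou5f1 (0.34) among the higher.

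Loci in the bins where H3K9me2 fell were called in RNA about as seldom as all loci. The RNA contrast was the effect of cDKO against its own controls minus that of G9a cKO against its own, in which limma called 264 of 38540 loci higher (0.685%) and 153 lower (0.397%), with 4061 and 1071 at an unadjusted p under 0.05. In the 51 bins that fell lie 135 loci, of which 1 was called higher (0.741%) and 0 lower (21 and 2 at an unadjusted p under 0.05). In the 163 windows that fell lie 61 loci and 0 were called (7 higher and 0 lower, unadjusted). A direct contrast of cDKO with G9a cKO RNA, which leaves out the controls, called 4 of these 61 higher (6.56%), against 1494 of all loci (3.88%). The 5 bins that rose hold the midpoints of 2 loci, Tm9sf3 and Gbe1, with 0 called and 0 at an unadjusted p under 0.05. The bins that fell hold mostly loci with hardly any RNA, with 6 of 135 at a mean of 10 RPM or more. A locus without reads takes a value that depends on library depth, and its contrast is not 0. Mt2, at a mean of 0 RPM, had a contrast of 0.52, and the median over all 38540 loci was 0.52 too. The unadjusted counts, with more loci higher than lower, therefore cannot be read as a gain of RNA.

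Over the wider sets, 8726 loci in bins with both cDKO libraries lower gave 50 higher (0.573%) and 13 lower (0.149%), and 9685 loci in bins with both higher gave 84 (0.867%) and 51 (0.527%). Among loci with at least 10 RPM, the median RNA contrast was 0.07 in the lower bins, 0.02 in the higher bins and 0.03 over all 9091. In Zfp clusters 2 of 297 loci were called higher and 0 lower (39 and 9 unadjusted), in Vmn clusters 2 of 103 (1.94%) and 0 (13 and 0), in Olfr clusters 3 (1.10%) and 1 of 272, and in other families 11 (1.43%) and 0 of 768 (119 and 9), against 0.685% higher and 0.397% lower over all loci. The median level of these loci was 1.10 RPM in Zfp, 0.05 in Vmn, 0.15 in Olfr and 0.35 in other families. The limit of loci without reads given above thus applies to the unadjusted counts here. Among loci with at least 10 RPM, 2.1% of all 9091 were called higher and 1.9% lower. For other families these were 6 of 98 (6.12%) and 0. Zfp clusters had 1 of 83 called each way, Vmn clusters 0 of 7 and Olfr clusters 0 of 14. Bins with both cDKO libraries lower had 39 of 1377 called higher (2.8%) and 17 lower (1.2%). Bins with both higher had 58 of 2863 (2.0%) and 53 (1.9%).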

How the data were processed

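H3K9me2 and RNA values were used as the authors deposited them, as log2 values, each library in its own column. The submitters' processing notes name GRCm38, Trim Galore, Bowtie2, HISAT2 2.1.0 and Bismark 0.19.0, without giving their roles. The values are log2 of reads scaled to a library of 1000000 (RPM), with 0.9 read for an empty feature. Whole reads were recovered within 0.01 read. The window table has 4 columns that match no sample, and these were not used. The tests had been planned for counts or linear values, and the test for log2 values was used. Groups are those of the labels.

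Bins took log2 RPM of reads plus 0.5. Tests were two-sided, across all windows, bins or loci, with limma 3.58.1 in R 4.3.3 (data.table, version 1.17.8; trend and robust moderation), adjusted by Benjamini-Hochberg. They were tested on simulated data. RefSeq tables of GRCm38.p6 gave genes and promoters. Figures and counts were made in Python 3.11.15 (matplotlib 3.10.9; pandas 2.3.3). Called bins were named by size (up to 10 each way with 20 reads, 10 kb windows up to 5 with 8 reads, and 5 each way where none was called). Single gene family clusters named as examples were chosen after their values were seen. The values of 1 cell fate gene and its cluster are not reported here. Members and gene lists were chosen with earlier results of these data known. Alternatives left out each library and varied the moderation, weights, centring, depth, pseudocount and filters. Depth was 1109191 to 1881848 reads per mutant library, so that precision was lowest in 10 kb windows.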

Additional observations from a re-analysis of the deposited data

How the results depend on the processing

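No named bin, gap in unevenness or difference of a region class whose groups did not overlap changed sign under the alternatives run for it. Named bins were picked as ones whose groups did not overlap. In such cases leaving out 1 library, adding controls to the fit or changing the moderation cannot change the sign. Those alternatives therefore say nothing about the stability of the sign. The balance of calls turned, and 4 classes whose groups overlapped (Krtap clusters, imprinted genes, the last 5 Mb and windows far from RNA loci) changed sign under some alternatives. Counts of called features moved most. For 10 kb windows (163 called), leaving out 1 library gave 17 to 447 calls, controls in the fit 0, precision weights 79, no trend or robust moderation 0 and thinning 0. Without G9a cKO 1 there were 106 higher and 14 lower, and without G9a cKO 3 16 and 1, against 0 and 163 with all. For 100 kb bins (56, of which 5 higher and 51 lower), leaving out 1 library gave 8 to 450, with 283 higher and 167 lower without G9a cKO 1 and 198 and 206 without G9a cKO 3, precision weights 206, no trend or robust moderation 28, centring on the median 152 and a pseudocount of 2 reads 155. For 1 Mb bins (0), leaving out 1 library gave 3 to 355, controls in the fit 223, precision weights 15, no trend or robust moderation 5, centring 13, thinning 17, autosomes alone 8 and a pseudocount of 2 reads 7. The difference over transcribed loci was 0.064 as a median over 100 kb bins. At 10 RPM or more, 0 loci were called in the bins that fell. A direct RNA contrast of cDKO and G9a cKO does not use each mutant's own controls. It called 454 loci in bins with both cDKO libraries lower (63 otherwise) and 646 in those with both higher (135 otherwise). As shares, 4.0% of loci were called higher and 1.2% lower in the former, and 4.1% and 2.5% in the latter. Over all loci the same contrast called 3.9% higher and 1.9% lower. The cause of these shifts was not tested. Of 141 recomputed values of region classes 2 moved. The gaps in unevenness were -24.6 to -16.8, -11.8 to -8.60 and -4.81 to -3.38 points without 1 library (chosen after seeing the data, as was the restriction to fully covered bins). No paired analysis was possible because the mutant libraries compared share no replicate numbers. Where a library was left out, the lone sample is assumed to vary like the other group.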
